A study of Homo sapiens with 2 samples.

Results

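The forkhead (FOX) genes were examined in Ca9-22, an established human cell line derived from a squamous carcinoma of the gingiva, whose cells carried a PTHLH vector or an empty vector. The 34 listed genes were matched to the probe sets of the array by gene symbol, and 33 of them had at least 1 probe set, out of 19775 genes measured. FOXC1 has no probe set named here and is not analysed here. Both cell populations were infected with their vector and then selected in the antibiotic blasticidin, so infection and drug are common to both. RNA from 1 culture of PTHLH vector cells and from 1 culture of empty vector cells was hybridised to 1 Affymetrix U133 array each. With 1 array per condition, no difference below has a replicate check, a p-value or an error between cultures. The list was chosen by gene family, with the log2 difference of FOXQ1 in this same comparison already known as the most raised, so all values of the list are given as a description.

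In the labels, the description of the samples gives CX-1 as the cell line and RAB3C as the gene, while the titles and the other labels name Ca9-22 and PTHLH, which were followed. PTHLH has no probe set named here, so the ectopic gene itself was not checked. The squamous keratin gene KRT5 had an intensity of 10228 on the PTHLH array and 7823 on the empty vector array. The 4 measured epithelial markers, KRT5, KRT14, DSG3 and EPCAM, all lay above the array median on both arrays. Of 3 measured leukocyte markers none lay above both medians, and PTPRC, which defines leukocytes, stood at 7.84 with PTHLH and 7.05 with the empty vector. Of 6 fibroblast markers, 3 lay below both medians, and COL1A1, THY1 and DCN lay above both. COL1A1 had 1652 with PTHLH and 2437 with the empty vector. THY1 and DCN were dimmer, at 25.2 and 26.3 with PTHLH and 32.1 and 28.6 with the empty vector. Of 4 endothelial markers, VWF and PECAM1 lay above both medians, at 128 and 39.9 with PTHLH and 129 and 40.4 with the empty vector, and CDH5 and KDR lay below. The cells are an established line, and the source of the COL1A1, THY1, DCN, VWF and PECAM1 signal was not tested.

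Forkhead proteins are transcription factors that share a winged helix DNA-binding domain, and each lettered class groups proteins with a like domain. The FOXA proteins open closed chromatin, FOXM1 drives genes of the G2/M phase, and the FOXO proteins are kept out of the nucleus when the kinase AKT phosphorylates them. In stratified epithelium, FOXN1 takes part in keratinocyte differentiation and FOXQ1 is known for its role in hair shaft formation in the mouse and for promoting epithelial to mesenchymal transition in carcinoma cells. FOXRED2, though listed, is not a forkhead factor: it is an oxidoreductase of the endoplasmic reticulum, and its symbol comes from its FAD-dependent oxidoreductase domain. The measured list therefore held 32 forkhead genes and FOXRED2.

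The promoters of FOXQ1, of its neighbour FOXF2 and of FOXO1 are shown because these genes are described in detail below. Each run is the 250 bases before the RefSeq start site on the gene's own strand (build GRCh38.p14), at chr6:1311848-1312097 (plus strand) for FOXQ1, chr6:1389326-1389575 (plus strand) for FOXF2 and chr13:40666642-40666891 (minus strand) for FOXO1. Capitals mark the CCAAT box, which reads ATTGG on the printed strand.
FOXQ1: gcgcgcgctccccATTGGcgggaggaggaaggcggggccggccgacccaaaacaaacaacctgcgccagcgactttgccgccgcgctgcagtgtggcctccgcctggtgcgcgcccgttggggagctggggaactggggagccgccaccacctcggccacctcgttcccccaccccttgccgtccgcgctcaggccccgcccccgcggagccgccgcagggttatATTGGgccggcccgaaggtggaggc
FOXF2: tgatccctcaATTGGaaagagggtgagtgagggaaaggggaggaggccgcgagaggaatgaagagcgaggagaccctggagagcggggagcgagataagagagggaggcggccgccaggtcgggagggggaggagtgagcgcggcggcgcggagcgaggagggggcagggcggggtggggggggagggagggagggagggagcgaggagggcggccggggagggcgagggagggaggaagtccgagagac
FOXO1: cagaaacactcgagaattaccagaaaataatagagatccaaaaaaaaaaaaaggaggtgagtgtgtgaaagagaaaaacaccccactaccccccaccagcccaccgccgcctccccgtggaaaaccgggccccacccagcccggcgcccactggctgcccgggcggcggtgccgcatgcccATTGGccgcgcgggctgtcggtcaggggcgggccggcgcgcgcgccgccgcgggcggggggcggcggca
The FOXQ1 promoter held 2 CCAAT boxes, which began 25 and 237 bases before the start site. FOXF2 had 1 at 240 bases and FOXO1 had 1 at 69 bases. A CCAAT box on either strand was present in 32.0% of 35116 promoter windows of this length, so a match is common. There were 36 windows of 25 listed genes, and 10 of the 36 had one. FOXM1 had no window and was not searched for any motif. The cell cycle homology region, searched as TTTGAA on both strands, was in 13.3% of all windows and in 4 of the 36. The core of the cAMP response element, TGACGT, was in 7.10% of all windows and in 3 of the 36, those of FOXD1, FOXD3 and FOXJ3. The forkhead motif TGTTTAC was in 2.98% of all windows and in 1 of the 36, of FOXP1. No 2 of these motifs overlapped, apart from the 2 cAMP cores of FOXD3 that began at 72 and 70 bases on opposite strands. A match is a run of letters and not a measured binding site.

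Intensities are linear and in arbitrary units, and the array median was 19.4 with PTHLH and 19.5 with the empty vector. A gene was represented by its brightest probe set, and a difference is the log2 intensity of the PTHLH array minus that of the empty vector array. Of the 33 measured genes, FOXQ1 and FOXM1 (2 genes) were at least 1.5-fold higher with PTHLH, and none was at least 1.5-fold lower. Over all genes, 1.97% were at least 1.5-fold higher and 3.52% at least 1.5-fold lower. A log2 difference above 0 was found for 13 of the 33 genes and below 0 for 20, and their median was -0.07, beside 0 for all genes. Leaving out FOXQ1 and FOXM1, the other 31 genes lay between -0.50 and 0.52 with a median of -0.10. For comparison, percentiles 5 and 95 of all genes lay at -0.50 and 0.44. In 5599 genes that had 2 or more probe sets brighter than both medians, the 2 brightest differed from each other by an amount that gives one log2 difference an SD of 0.20. This SD covers differences between probe sets on the same 2 arrays and not between cultures.

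FOXQ1 had the highest difference of all 19775 genes. Its intensity was 915 on the PTHLH array and 244 on the empty vector array, a 3.75-fold higher value (log2 difference 1.91). On the log2 scale it stood 5.56 above the array median with PTHLH and 3.65 above it with the empty vector, so the gene gave signal well above the median in both cultures. In RNA of a whole culture, more cells that express a gene and more RNA per cell cannot be told apart. FOXQ1 had 1 probe set, so no second probe set can be set beside this value.

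FOXQ1 lies in a forkhead cluster on chromosome 6 together with FOXF2 and FOXC1. FOXF2, a factor known from mesenchyme of the gut and palate, had 232 with PTHLH and 162 with the empty vector (1.43-fold higher, log2 difference 0.52), just inside the 1.5-fold threshold. At least as high a difference was seen in 3.02% of all genes. FOXCUT, a long noncoding RNA beside FOXC1, had 22.4 with PTHLH and 23.0 with the empty vector. The next measured genes away from FOXQ1 past the cluster were lower, namely GMDS, an enzyme of GDP-fucose synthesis, with 79.6 with PTHLH and 121 with the empty vector (log2 difference -0.61), and its divergent transcript GMDS-DT with -0.64. On the other side of FOXQ1, LINC01622 was below both medians, HUS1B had a log2 difference of 0.20 and EXOC2, a subunit of the exocyst, one of -0.27. Of the 12 measured genes nearest to FOXQ1, 6 to each side, none was at least 1.5-fold higher, while GMDS and GMDS-DT were at least 1.5-fold lower. Over all genes, 1.97% were at least 1.5-fold higher and 3.52% at least 1.5-fold lower. Among the 12, FOXF2 had the highest difference and MYLK4 the next highest (0.49).

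Of 16 measured genes reported downstream of FOXQ1, none was at least 1.5-fold higher with PTHLH and 2 were at least 1.5-fold lower, beside 3.52% of all genes. Their median log2 difference was -0.12, and -0.014 where each gene took the median of its probe sets. Over the 11 genes above both medians it was 0, which is the value of MUC5AC alone, identical on both arrays at 44.0. The lower ones were VEGFA, the angiogenic growth factor, with 270 with PTHLH and 478 with the empty vector (-0.82, with its probe sets between -0.82 and -0.20), and CDKN1A, the CDK inhibitor p21, with 1339 and 2065 on the same arrays (-0.62). The E-cadherin gene CDH1 had 1399 with PTHLH and 1567 with the empty vector, a log2 difference of -0.16. TWIST1, a mesenchymal transcription factor, had 127 with PTHLH and 180 with the empty vector (-0.50). AXL, a receptor tyrosine kinase, and SNAI2, a repressor of E-cadherin, had differences of 0.40 and 0.36, within 1.5-fold. ZEB1 and ZEB2 lay below both medians and VIM near them, so their differences rest on dim signal.

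FOXM1, the forkhead factor of the G2/M programme, had an intensity of 1237 with PTHLH and 707 with the empty vector. It was 1.75-fold higher (log2 difference 0.81), and 0.521% of all genes had at least as high a difference. Its only probe set carries the suffix x, which marks probes that can also bind other transcripts, so its value has no second probe set beside it either.

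Of 24 measured FOXM1 targets and other G2/M genes, 4 passed 1.5-fold upwards, beside 1.97% of all genes, and none downwards, with 2 upwards after quantile normalization. Above 0 were 23 of the 24, beside 48.5% of all genes, and the median log2 difference was 0.38. The 4 were CCNB1, the mitotic cyclin B1, with 1020 with PTHLH and 648 with the empty vector (1.57-fold), PRC1, a bundler of midzone microtubules (1.57-fold), TPX2, a spindle assembly factor (1.51-fold), and the mitotic kinase gene AURKA, which lay at the threshold itself (log2 difference 0.59). KIF20A and PLK1, a kinesin of cytokinesis and a mitotic kinase, stood just inside the threshold with log2 differences of 0.58 and 0.56. CENPA, the centromeric histone, was the only one below 0 (-0.06). The probe sets of a gene spread widely here, from 0.05 to 0.75 for AURKA and from -0.29 to 0.53 for CCNB2.

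The B-MYB and MuvB proteins act with FOXM1 on G2/M promoters. None of their 6 genes was 1.5-fold changed, beside 1.97% of all genes higher and 3.52% lower. Their median log2 difference was 0.30, and 0.27 over the 4 above both medians. MYBL2, which encodes B-MYB, had 320 with PTHLH and 238 with the empty vector (0.43), and RBBP4, a histone-binding subunit, had 373 with PTHLH and 280 with the empty vector (0.41). LIN37, another MuvB subunit, had -0.07, and LIN9 and LIN54 lay below both medians.

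**Figure D1:**
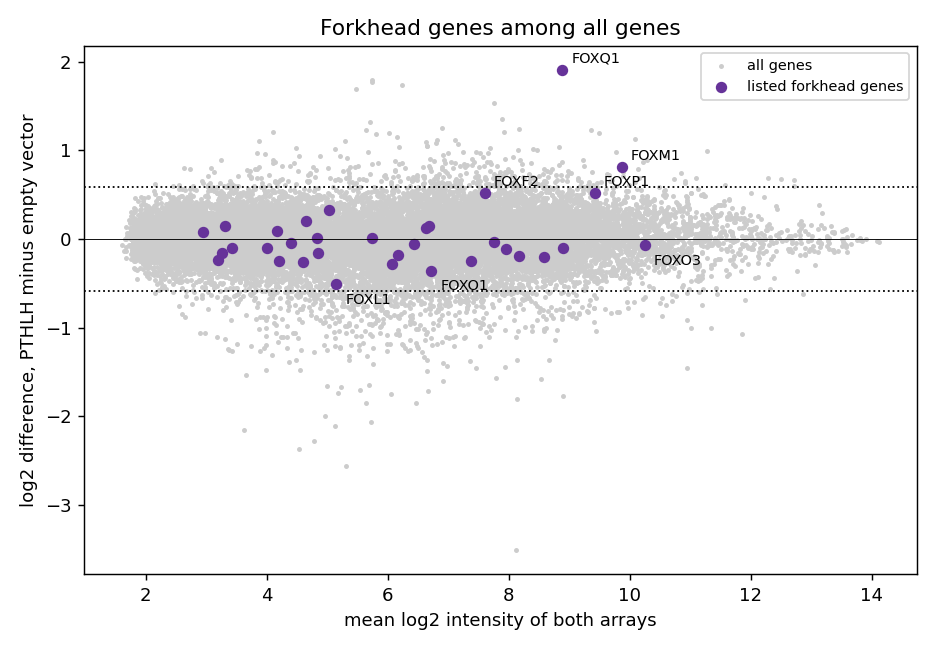
Log2 difference, PTHLH minus empty vector, against the mean log2 intensity of both arrays, for all genes (grey) and the 33 measured genes of the list (purple). Dotted lines mark 1.5-fold in either direction. FOXQ1 at 1.91 and FOXM1 at 0.81 lie above the upper line, and the other 31 lie between the lines.

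The FOXO factors, which act in stress resistance, cell cycle arrest and apoptosis and are restrained by AKT, had no brightest probe set past 1.5-fold. FOXO1 had 92.9 with PTHLH and 119 with the empty vector by its brightest probe set, a log2 difference of -0.36. Its second probe set had 55.0 with PTHLH and 82.6 with the empty vector (-0.59), the only one of the 87 probe sets of the list at least 1.5-fold lower, where 2.65% of all probe sets were. The third FOXO1 probe set, below both medians, had 0.16.

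FOXO3 had 1185 with PTHLH and 1243 with the empty vector, a log2 difference of -0.07. Its 4 probe sets all lay above both medians and spanned -0.08 to 0.03, within the SD between probe sets, and one of them held the identical value of 43.1 on both arrays. FOXO4 had 27.1 with PTHLH and 30.3 with the empty vector (-0.16). Signal from the FOXO3B copy cannot be told apart on 3 further probe sets that carry both symbols, which were left out of the counts and had differences between -0.08 and 0.21.

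Of 20 measured FOXO targets, none reached 1.5-fold higher and 1 was at least 1.5-fold lower, beside 1.97% and 3.52% of all genes. Their median log2 difference was -0.19, and 9 of 20 were above 0, beside 48.5% of all genes. Over the 18 of them above both medians, 9 were above 0 and the median was -0.10. With a floor on dim values the median of the 20 was -0.0029. That value is the log2 difference between the floors of both arrays, which any floored gene takes, so it does not measure the targets. The lower one was TXNIP, an inhibitor of thioredoxin and of glucose uptake, with 664 with PTHLH and 1177 with the empty vector (-0.83), and its 3 probe sets lay between -0.83 and -0.65. BCL6, a transcriptional repressor, had -0.42 and the catalase gene CAT -0.38, while SESN3, a stress-induced sestrin, had 0.45. CDKN1B, the CDK inhibitor p27, had 733 with PTHLH and 712 with the empty vector (0.04). The 20 measured regulators of FOXO proteins had a median of 0.15. Of these, 1 was at least 1.5-fold higher and none lower, beside 1.97% and 3.52% of all genes. This was CREBBP, an acetyltransferase, with 641 with PTHLH and 391.5 with the empty vector (1.64-fold), though its other probe sets went down to 0.08, and its related gene EP300 had 169 with PTHLH and 116 with the empty vector (1.46-fold). The kinase genes AKT1, AKT2 and SGK1 had log2 differences of 0.11, 0.34 and 0.29, and the 7 probe sets of AKT2 ran from -0.69 to 0.34.

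**Figure D2:**
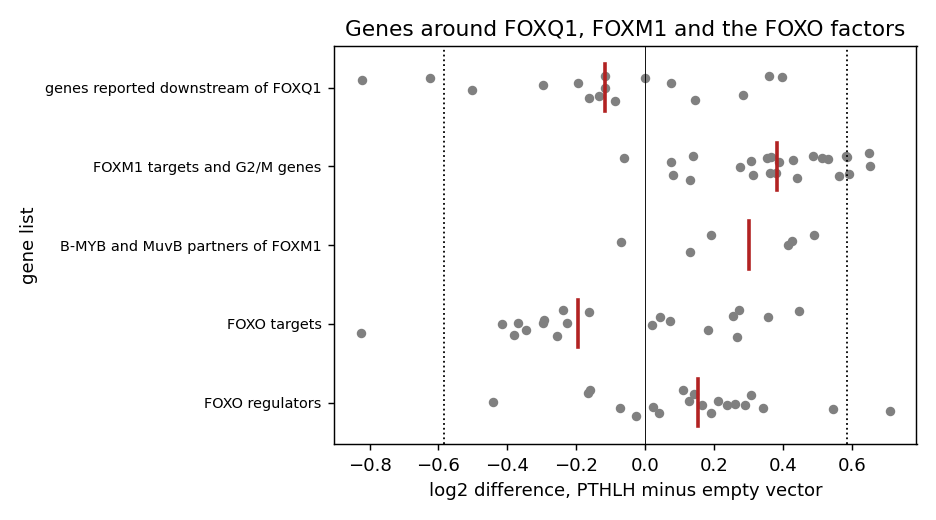
Log2 difference, PTHLH minus empty vector, of each measured gene (grey points, brightest probe set, spread vertically for legibility) in 5 lists, with the median of each list as a red line and 1.5-fold as dotted lines. The medians run from -0.19 for FOXO targets to 0.38 for FOXM1 targets and G2/M genes.

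FOXP1, a repressor known from B cell development, had 8 probe sets. Its brightest had 821 with PTHLH and 575 with the empty vector, the next 545 with PTHLH and 392.2 with the empty vector, and the third 289 with PTHLH and 202 with the empty vector. These 3 had log2 differences of 0.51, 0.47 and 0.51, that is 1.43-fold, 1.39-fold and 1.43-fold. All 3 stayed under the 1.5-fold threshold and differed from each other by less than the SD between probe sets. The 2 dimmer ones above both medians went to either side, with 0.21 and -0.26. At least as high a difference as that of the brightest was seen in 3.09% of all genes.

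The other FOXP genes differed little. FOXP4, the relative of FOXP1 in lung and gut epithelium, had 67.8 with PTHLH and 76.9 with the empty vector by one probe set and 65.4 with PTHLH and 72.9 with the empty vector by the other (-0.18 and -0.16). FOXP2, known for its role in speech circuits of the brain, had 53.7 with PTHLH and 53.3 with the empty vector. A dim FOXP2 probe set had 13.4 with PTHLH and 7.95 with the empty vector (0.75), below the median of each array, where its 3 probe sets above both medians lay between -0.15 and 0.01.

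**Figure D3:**
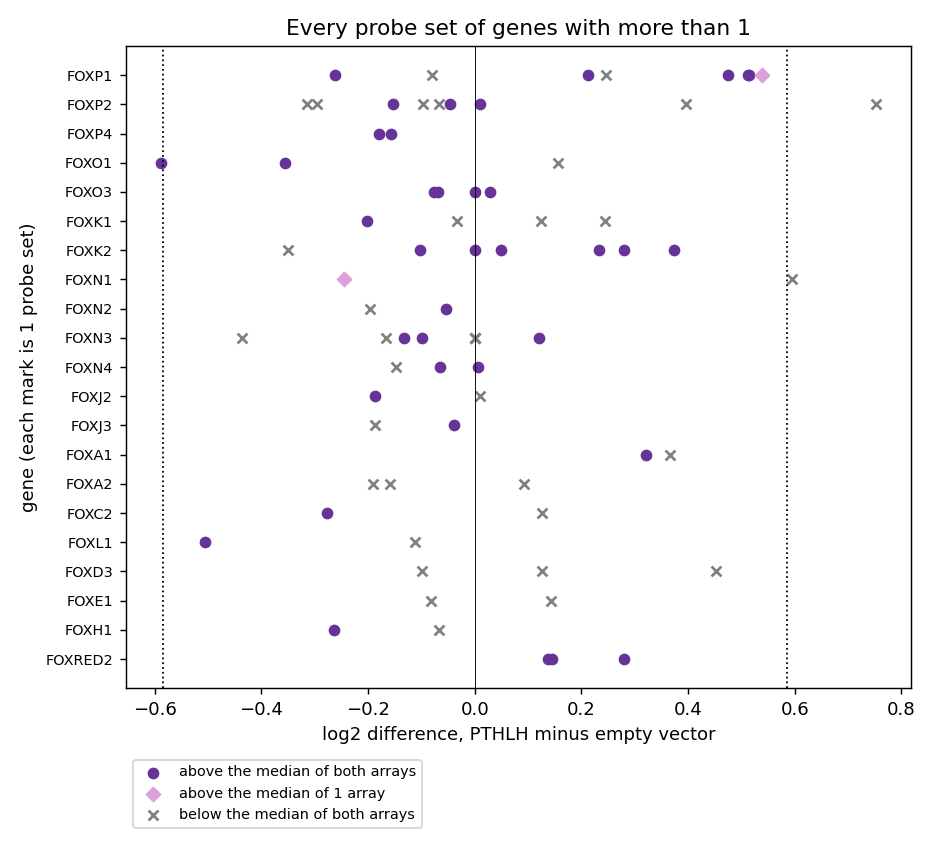
Log2 difference, PTHLH minus empty vector, of every probe set of the genes with more than 1 probe set. Filled circles lie above the median of both arrays, diamonds above the median of 1 array and crosses below both, and dotted lines mark 1.5-fold. The marks past the dotted lines are 1 FOXO1 circle at -0.59 and the crosses of FOXP2 at 0.75 and FOXN1 at 0.60.

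The early developmental classes were mixed and within 1.5-fold. FOXA1, a pioneer factor of endoderm, breast and prostate, had 36.3 with PTHLH and 29.0 with the empty vector (0.32), and its dim second probe set had 0.37. FOXD1, a factor of kidney stroma, had 152 with PTHLH and 181 with the empty vector (-0.25). FOXC2, a factor of lymphatic vessels and mesenchyme, had 60.6 with PTHLH and 73.5 with the empty vector (-0.28), while its dim probe set had 0.13. FOXL1, a factor of gut mesenchyme, had 29.8 with PTHLH and 42.3 with the empty vector, and its log2 difference of -0.50 was the lowest of the list. A difference at least as low was seen in 4.84% of all genes. FOXL1, FOXC2 and FOXF1 lie close together on chromosome 16, and FOXF1 stood below both medians at 9.10 with PTHLH and 10.2 with the empty vector (-0.16). FOXL2, the factor of ovarian granulosa cells, had 239 with PTHLH and 259 with the empty vector (-0.11). FOXD2 and FOXH1, a SMAD partner in nodal signalling, lay near the array median, at 20.9 and 22.0 with PTHLH and 21.6 and 26.4 with the empty vector.

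The FOXJ, FOXK and FOXN genes differed by no more than 0.25 by their brightest probe sets. FOXK1 and FOXK2, repressors of autophagy genes and regulators of glycolysis, had 358 and 461 with PTHLH and 412 and 495 with the empty vector (-0.20 and -0.10). The 6 FOXK2 probe sets above both medians ranged from -0.10 to 0.37. FOXJ2 had 270 with PTHLH and 308 with the empty vector, and FOXJ3 had 214 with PTHLH and 220 with the empty vector. FOXJ1, the master factor of motile cilia, stood near the median at 26.9 with PTHLH and 23.5 with the empty vector. FOXN2 had 84.5 with PTHLH and 87.7 with the empty vector, FOXN3, a checkpoint repressor, had 103 with PTHLH and 94.7 with the empty vector by its brightest probe set (0.12) while its other probe sets lay between -0.44 and 0, and FOXN4 had 28.4 with PTHLH and 28.3 with the empty vector. FOXN1, the keratinocyte and thymus factor, had 16.9 with PTHLH and 20.0 with the empty vector, which is above the median of the empty vector array alone, and its second probe set, below both medians, went the other way with 16.0 with PTHLH and 10.6 with the empty vector. FOXRED2 had 108 with PTHLH and 97.9 with the empty vector, and its 3 probe sets lay between 0.14 and 0.28.

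The brightest probe sets of 7 genes lay below both medians. They belonged to FOXA2, FOXB1, FOXD3, FOXE1, FOXE3, FOXF1 and FOXI1, factors of liver, brain, neural crest, thyroid, lens, lung mesenchyme and inner ear. Their intensities ran from 7.97 to 18.7 with PTHLH and from 7.52 to 17.5 with the empty vector, and their log2 differences from -0.24 to 0.14. Over the whole list, 46 of 87 probe sets lay above both medians, 2 above 1 median and 39 below both. Of the 87, 4 were at least 1.5-fold higher, where 1.81% of all probe sets were, namely those of FOXQ1 and FOXM1 and the dim ones of FOXN1 and FOXP2. On 5 of the 87 both arrays held an identical value (5.75%), as they did on 6.16% of all probe sets.

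Of 17 other forkhead genes outside the list, 7 had a probe set named here, and 5 of these lay below both medians. FOXO6, a FOXO factor of the brain, had 115 with PTHLH and 122 with the empty vector (-0.08), by a probe set with the suffix x. FOXS1, known from sensory neurons and pericytes, was the only one at least 1.5-fold lower, with 13.6 with PTHLH and 21.2 with the empty vector (-0.64), both values near or below the array medians. Over all genes, 3.52% were at least 1.5-fold lower. FOXP3, the factor of regulatory T cells, had 18.8 with PTHLH and 16.6 with the empty vector, below both medians.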

How the data were processed

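Total RNA of Ca9-22 cells with a PTHLH vector and with an empty vector was hybridised to 1 Affymetrix U133 array each. As deposited, each array holds 1 linear intensity for each of 54675 probe sets. How the authors corrected background, normalized the arrays and summarised probes is not given in the sources used here. Quartiles of both arrays were nearly equal (7.74 and 76.3 with PTHLH, 7.70 and 77.9 with the empty vector).

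Intensities were turned to log2 values and subtracted, PTHLH minus empty vector, without further normalization. Probe sets were named through the platform annotation, with symbols updated by gene identifier (RefSeq, GRCh38.p14). The 41097 with 1 symbol were used, and 1801 with several symbols and 11777 unnamed here were left out of gene counts. Each gene was read from its brightest probe set over both arrays, and a 1.5-fold difference, the study's own threshold, was counted. No test was run, since precision is limited by the number of arrays. The counting was tested on simulated data. Gene coordinates were used for promoters and gene order, not for probe sets.

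The members and all lists were chosen with earlier results of these data known. Every listed gene was named, with up to 4 changed genes in each direction from the other lists by rule and the measured genes next to FOXQ1. Unchanged genes of those lists and the genes near FOXC2 were picked after their values were seen. Protein features, planned at first, were not analysed here. Promoters were those of 25 of 34 listed genes. The alternatives were quantile normalization, another centring, the median or the largest change over probe sets, a filter and a floor on dim values, dropping the probe sets of suffix x or s, and a 2-fold threshold. Python 3.11.15, pandas 2.3.3, numpy 2.4.6 and matplotlib 3.10.9 were used.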

Additional observations from a re-analysis of the deposited data

How the results depend on the processing

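FOXQ1 and FOXM1 have 1 probe set each, above both medians. The median or largest change over probe sets, the filter and the floor therefore could not alter their differences. Quantile normalization and the other centring could, and gave 1.88 and 1.93 for FOXQ1 and 0.76 and 0.83 for FOXM1. Without probe sets of suffix x or s FOXM1 has none left, and 1 of the 29 listed genes still measured was at least 1.5-fold higher. Reading each gene from its most changed probe set, 4 listed genes were higher and 1 lower, as dim FOXN1 and FOXP2 and the second FOXO1 probe set passed the threshold. That setting raised the counts among all genes too, to 3.48% higher and 4.98% lower, beside 1.97% and 3.52% in the main run. In the other settings at 1.5-fold, the shares of all genes ran from 1.25% to 2.50% higher and from 2.25% to 4.36% lower. With a 2-fold threshold 1 listed gene was higher. FOXM1 targets at least 1.5-fold higher numbered 2 after quantile normalization, 2 of the 17 left without suffix x or s, and 0 at 2-fold. They numbered 6 both after centring on bright probe sets and with the largest change. For B-MYB and MuvB genes the median was 0.063 with a floor on dim values, and 1 was higher both with the largest change and without suffix x or s. FOXO targets had 2 higher with the largest change, and 0 lower at 2-fold. Without suffix x or s 16 of the 20 were left, and 0 were lower because TXNIP was not among them. FOXO regulators had 0 higher with the median over probe sets and at 2-fold, and 1 lower with the largest change. Genes downstream of FOXQ1 had 1 lower with the median over probe sets, 3 with the largest change, and 0 at 2-fold. Without suffix x or s 11 of the 16 were left, and 0 were lower. CDKN1A and the VEGFA probe set of the main run had then been dropped. Other forkhead genes had 0 lower at 2-fold, and 0 with only bright probe sets, where 1 of the 7 was left and FOXS1 was not. Of 206 differences of the other listed genes, 191 moved by less than the SD between probe sets and 15 moved by more. Many of the 191 could not move. The filter and the floor leave a gene unchanged where its brightest probe set lies above both medians. A gene with 1 probe set keeps its value under the median or largest change. The count of 191 is therefore no measure of stability. No paired analysis was possible because each condition has 1 array.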

Other observations

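Noncoding RNAs named after forkhead genes were mostly dim. FOXP4-AS1, beside FOXP4, had 111 with PTHLH and 104 with the empty vector (log2 difference 0.10), and FOXD2-AS1 had 26.0 with PTHLH and 26.7 with the empty vector by its brighter probe set. FOXRED1, an assembly factor of mitochondrial complex I and no forkhead factor either, had 299 with PTHLH and 220 with the empty vector (0.44).

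Some deposited intensities lay on a regular grid. On the PTHLH array, 4.02% of all probe sets, and on the empty vector array 4.06%, had a value within 0.001 of a step of 0.5 that starts at 0.45, where values spread evenly would give 0.4%. Among probe sets above 50 on both arrays, 8.75% had this on both. FOXF2 (232.45 with PTHLH, 162.45 with the empty vector), FOXD1 (152.45 with PTHLH, 180.95 with the empty vector) and 1 of the FOXP1 probe sets had such values on both arrays. The origin of the grid was not tested, and the differences of these genes are given as deposited.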
